A study of Brassica napus with 12 samples.

Results

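TRANSPARENT TESTA 8 (TT8) is described here in immature seeds of Brassica napus (rapeseed) through 2 genes taken as its copies, BnaA09g22810D on chromosome A09 and BnaC09g24870D on chromosome C09. They were chosen by gene ID, with earlier results of these data known, and are 2 of 50338 genes listed in any file. Both IDs are listed for all 12 libraries, so both are among the 43708 genes listed throughout and both were tested. The files carry no gene names. The reference table of the Da-Ae assembly names 1 gene TT8. It lies on A9, and the nearest reference genes that carry an A09 ID are BnaA09g21010D before it and BnaA09g23210D after it, so the A09 member's number falls inside that interval. The table names no TT8 gene on C9, so the identity of the C09 member was not checked.

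TT8 is a basic helix-loop-helix transcription factor. In Arabidopsis it acts in the seed coat together with the R2R3-MYB protein TT2 and the WD40 repeat protein TTG1, and this complex switches on late flavonoid genes such as BANYULS, which encodes anthocyanidin reductase. The products are proanthocyanidins, the tannins that turn brown as a seed coat matures, and Arabidopsis tt8 mutants have yellow seeds. Rapeseed is an allotetraploid that carries an A subgenome from Brassica rapa and a C subgenome from Brassica oleracea, so a gene usually has a homoeologous partner on the other subgenome.

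The groups were 4 inbred lines named A28, R8Q10, SW and YH25005, all self-pollinated under bags in 1 field. Each line gave 3 libraries from material of 24 days after pollination. The study set lines with high linolenic acid in the seed against lines with low linolenic acid. The labels do not assign either trait, or a seed colour, to a line, so all 6 line pairs were compared alike. The tissue is labelled as seeds while the extraction text speaks of embryos. No marker of seed coat, endosperm or embryo could be matched to an ID, so the labelled tissue was not checked here. In such bulk samples fewer seed coat cells and less TT8 RNA per cell cannot be told apart. It is not stated whether replicates were separate plants, so the spread behind each p-value may be technical. Library totals ranged from 30150457 to 40762254 counts, and no pair of libraries held identical counts.

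Both copies were high in A28 and SW and low in R8Q10 and YH25005, and they were ordered alike. The A09 copy averaged 29.6 ± 12.3 CPM (library-scaled counts, scaled further by edgeR's TMM factors; SD, n = 3) in A28, 20.7 ± 4.91 in SW, 7.94 ± 1.03 in R8Q10 and 4.69 ± 3.06 in YH25005. The C09 copy averaged 18.6 ± 7.14 CPM in A28, 16.6 ± 5.24 in SW, 5.23 ± 2.41 in R8Q10 and 3.05 ± 1.62 in YH25005. Across the 4 lines the A09 copy differed with an adjusted p of 0.0015 and the C09 copy with 0.00287 (edgeR quasi-likelihood F test, Benjamini-Hochberg over all genes). By the same test and a threshold of 0.05, 46.2% of all genes differed among the lines, so passing it is common in these seeds.

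Library by library, the A09 copy gave 1189, 1468 and 603 counts in A28 replicates 1, 2 and 3, which are 26.5, 43.2 and 19.2 CPM. In SW it gave 774, 847 and 527 counts, or 21.3, 25.3 and 15.6 CPM. These SW and A28 ranges overlap. In R8Q10 the A09 copy gave 317, 387 and 231 counts, or 8.35, 8.71 and 6.77 CPM, the tightest of its 4 groups. In YH25005 it gave 75, 292 and 73 counts, or 2.92, 8.22 and 2.93 CPM. YH25005 replicate 2 thus stood at the level of R8Q10, while the other two YH25005 libraries lay below all R8Q10 libraries.

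The C09 copy gave 1096, 703 and 334 counts in A28, or 24.4, 20.7 and 10.6 CPM. In SW it gave 613, 724 and 379 counts, or 16.9, 21.7 and 11.2 CPM. Again the A28 and SW ranges overlap. In R8Q10 it gave 273, 265 and 87 counts, or 7.19, 5.97 and 2.55 CPM. In YH25005 it gave 55, 175 and 52 counts, or 2.14, 4.93 and 2.08 CPM. R8Q10 replicate 3 and YH25005 replicate 2 brought the ranges of these lines into overlap. For both copies, every A28 and SW library lay above every R8Q10 and YH25005 library. How many of all genes separate in this way was not counted, so this does not show the copies to be unusual.

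**Figure D1:**
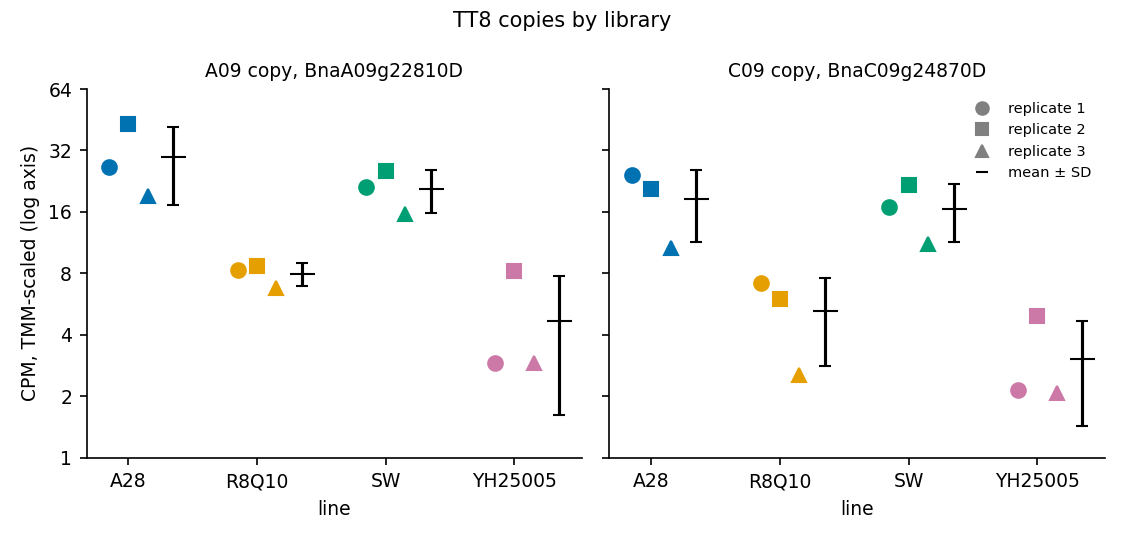
TMM-scaled CPM (log axis) of the A09 copy (left) and the C09 copy (right) in each of the 12 libraries, with the mean ± SD of each line's 3 libraries in black. For the A09 copy the A28 and SW libraries sit between 15.6 and 43.2 CPM, and the R8Q10 and YH25005 libraries between 2.92 and 8.71.

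Per length, in the authors' FPKM, the A09 copy stood at 17.1 ± 7.63 in A28, 10.7 ± 3.17 in SW, 4.18 ± 0.845 in R8Q10 and 1.76 ± 1.56 in YH25005 (SD, n = 3). The C09 copy stood at 10.02 ± 4.42, 8.12 ± 2.38, 2.79 ± 1.27 and 1.25 ± 0.785 FPKM in the same order of lines. In its highest library, A28 replicate 2, the A09 copy exceeded the FPKM of 85.9% of the listed genes, and in its lowest rank, YH25005 replicate 1, of 16.1%. The C09 copy ranged from 73.3% in A28 replicate 1 to 14.8% in YH25005 replicate 1. TT8 was therefore an upper-range transcript in the best A28 library and a low one in 2 YH25005 libraries. The sum of both copies was 27.1 ± 11.03 FPKM in A28, 18.9 ± 5.54 in SW, 6.97 ± 2.12 in R8Q10 and 3.02 ± 2.34 in YH25005. The FPKM values were used without TMM factors, which were 0.766 to 0.914 in YH25005 and 1.00 to 1.14 in the other lines. For both copies, YH25005 stood lower against each other line in mean FPKM than in mean CPM. Counting error, taken as 1 over the square root of the count, was at most 13.9% in any library, smaller than these differences.

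The largest differences of both copies were between A28 and YH25005. There the A09 copy was higher in A28 by 2.65 (log2 fold change, 95% interval 1.68 to 3.62, adjusted p = 0.00136, edgeR quasi-likelihood test, as in all pairs that follow). The C09 copy was higher by 2.60 (interval 1.51 to 3.69, adjusted p = 0.00319). In this pair 27.2% of all genes were called, and 7.59% and 7.82% of all genes had a larger absolute fold change than the A09 and the C09 copy. The call and the direction held without any single library. Without YH25005 replicate 2 the values rose to 3.34 and 3.14 (adjusted p = 0.000282 and 0.0029, edgeR). The lowest values were 2.27 for the A09 copy, without A28 replicate 2, and 2.34 for the C09 copy, without A28 replicate 1 (adjusted p = 0.00289 and 0.013, edgeR).

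SW exceeded YH25005 by 2.14 in the A09 copy (interval 1.19 to 3.09, adjusted p = 0.00393) and by 2.43 in the C09 copy (interval 1.35 to 3.52, adjusted p = 0.004). Of all genes, 26.7% were called in this pair, and 10.7% and 8.82% had a larger absolute fold change than the A09 and the C09 copy. Without YH25005 replicate 2 the fold changes of the copies were 2.83 and 2.97. The lowest were 1.89 for the A09 copy, without YH25005 replicate 1, and 2.19 for the C09 copy, without SW replicate 2 (adjusted p = 0.0204 and 0.0153, edgeR). A28 exceeded R8Q10 by 1.90 in the A09 copy (interval 0.96 to 2.83, adjusted p = 0.00782) and by 1.83 in the C09 copy (interval 0.77 to 2.88, adjusted p = 0.0184), in a pair where 21.7% of all genes were called. There 11.2% and 11.8% of all genes had a larger absolute fold change than the A09 and the C09 copy. The call of the C09 copy in A28 against R8Q10 was lost with only these lines in the fit (adjusted p = 0.0574). It was also lost without A28 replicate 1 (1.53, adjusted p = 0.0675), without R8Q10 replicate 2 (1.89, 0.0517) or without R8Q10 replicate 3 (1.46, 0.0716). Same-numbered libraries of A28 and R8Q10 deviated together across genes in replicates 2 and 3 (r of 0.581 and 0.432). A28 replicate 1 went more with R8Q10 replicate 3 (0.205) than with R8Q10 replicate 1 (0.118). A block by replicate number in the fit of these lines alone, chosen after seeing the data, gave the C09 copy 1.82 (adjusted p = 0.00305, edgeR). That value rests on a pairing that is not clear in replicate 1.

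R8Q10 lay below SW, with a log2 fold change of -1.38 in the A09 copy (interval -2.31 to -0.46, adjusted p = 0.0336) and -1.66 in the C09 copy (interval -2.71 to -0.61, adjusted p = 0.026), where 23.6% of all genes were called. In this pair 17.9% and 14% of all genes had a larger absolute fold change than the A09 and the C09 copy. The calls of the copies here were lost with more single libraries left out than the others. Leaving out R8Q10 replicate 1, 2 or 3 gave the A09 copy adjusted p-values of 0.0849, 0.0693 and 0.118, and leaving out SW replicate 1 or 2 gave 0.0773 and 0.108. For the C09 copy the call was lost without R8Q10 replicate 2 (0.0574), R8Q10 replicate 3 (0.0912), SW replicate 1 (0.0603) or SW replicate 2 (0.0919). The direction held in each of these fits. With all libraries and the replicate number as a block, the adjusted p-values were 0.00528 (A09 copy) and 0.00265 (C09 copy, edgeR). The labels do not say that this number pairs libraries.

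In the order of levels, A28, SW, R8Q10 and YH25005, the step from SW to R8Q10 passed the test in both copies, and the steps at either end did not. A28 against SW gave 0.51 for the A09 copy (interval -0.39 to 1.42, adjusted p = 0.478) and 0.16 for the C09 copy (interval -0.85 to 1.18, adjusted p = 0.869), in a pair with 15.4% of all genes called. The A09 value fell to 0.09 without A28 replicate 2, and the sign of the C09 value turned without A28 replicate 1 (-0.14) or without SW replicate 3 (-0.09). R8Q10 against YH25005 gave 0.75 for the A09 copy (interval -0.17 to 1.68, adjusted p = 0.217) and 0.77 for the C09 copy (interval -0.28 to 1.82, adjusted p = 0.265), in a pair with 23.4% called. These intervals reach past a 2-fold difference in the upward direction, so they do not show equal levels. Without YH25005 replicate 2, R8Q10 exceeded YH25005 in the A09 copy by 1.44 with an adjusted p of 0.0183, and in the C09 copy by 1.31 with an adjusted p of 0.0917. With all libraries and the replicate number as a block, the values were 0.90 (adjusted p = 0.0377) and 0.74 (adjusted p = 0.102, edgeR). Same-numbered libraries of R8Q10 and YH25005 did not deviate together across genes (r of -0.07, -0.30 and 0.08). YH25005 replicate 2 had a TMM factor of 0.914, against 0.779 and 0.766 in replicates 1 and 3, and the largest total of the line with 38867960 counts. The part of these library properties in its TT8 level was not tested.

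**Figure D2:**
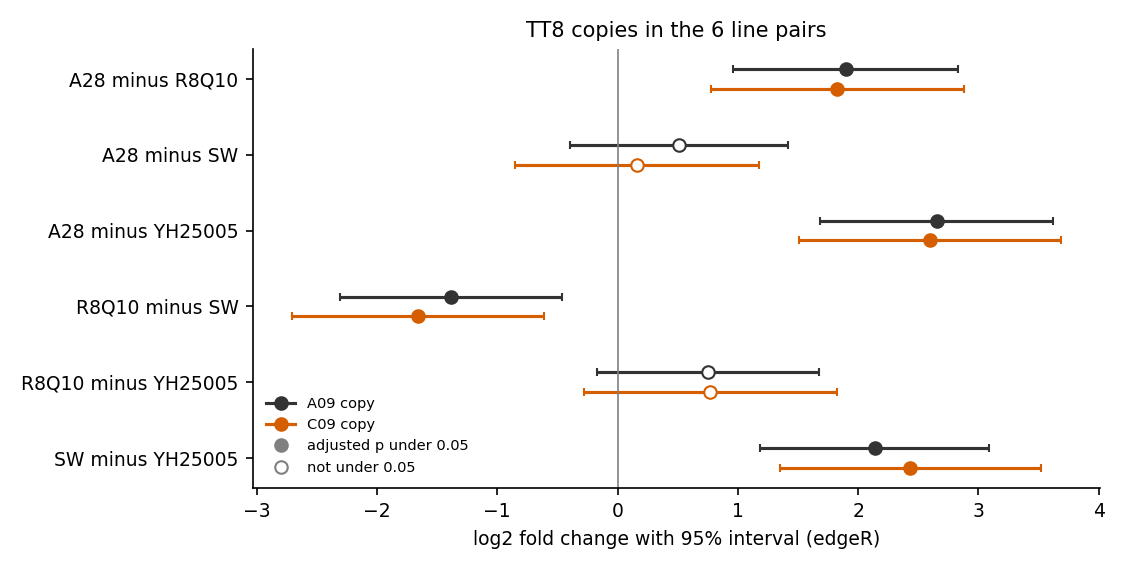
Log2 fold changes of the A09 copy (black) and the C09 copy (orange) in the 6 line pairs, with 95% intervals from edgeR's quasi-likelihood fit of all 12 libraries; filled points have an adjusted p under 0.05. Both copies pass in the same 4 pairs and stay on the same side of 0 in all 6.

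Each copy was thus higher in A28 and in SW than in R8Q10 and in YH25005 in all 4 contrasts between those pairs of lines, which share libraries with each other. Of all genes tested, 858 or 1.96% met the same condition. The condition follows the copies' own pattern, so this share does not show them to be unusual. Neither copy met the condition of being lower in YH25005 than in each other line, which 3.72% of genes did, because R8Q10 against YH25005 was not called with all libraries and no replicate block in the fit.

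The A to C balance leaned to the A09 copy in 12 of 12 libraries, in FPKM and in counts. Of the FPKM of both copies the A09 copy held 55.3% ± 6.01 in YH25005, 56.9% ± 0.699 in SW, 61.5% ± 7.89 in R8Q10 and 63.2% ± 7.91 in A28 (SD, n = 3). The line means lay closer together than the replicates of A28 or of R8Q10 among themselves, and the ranges of all 4 lines overlap. The replicates of YH25005 and of SW lay closer together than those of A28 or R8Q10. A difference in balance between lines was not tested. The 12 shares ran from 51.6% in YH25005 replicate 3 to 70.6% in R8Q10 replicate 3, with a median of 57.1%. The A09 copy therefore ranged from 1.06 to 2.40 times the FPKM of the C09 copy.

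Within A28 the share was 54.1% in replicate 1 and 68.3% and 67.2% in replicates 2 and 3. Within R8Q10 it was 56.4%, 57.5% and 70.6% in replicates 1 to 3. SW was the steadiest line, with 57.7%, 56.4% and 56.6%. In YH25005 the shares were 52.2%, 62.3% and 51.6%, the highest being in replicate 2, the library with the highest level of both copies. A28 replicate 1, with the lowest share of its line, held the highest CPM of the C09 copy in the series.

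The count shares carry an exact (Clopper-Pearson) 95% interval that covers counting error only. In A28 replicate 1, 1189 of 2285 counts (52.04%, interval 49.96 to 54.1) came from the A09 copy, against 1468 of 2171 (67.6%, 65.6 to 69.6) in replicate 2. These intervals do not overlap, so the replicates of A28 differed by more than counting error. In R8Q10 replicate 3 the share was 231 of 318 (72.6%, 67.4 to 77.5), above the intervals of replicate 1 (53.7%, 49.6 to 57.8) and replicate 2 (59.4%, 55.5 to 63.2). In YH25005 replicates 1 and 3 the summed counts fell to between 125 and 130, and the intervals ran from 48.7 to 66.3 and from 49.2 to 67.1, too wide to separate them from even use of both copies. In 8 of 12 libraries the whole interval lay above 50%.

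**Figure D3:**
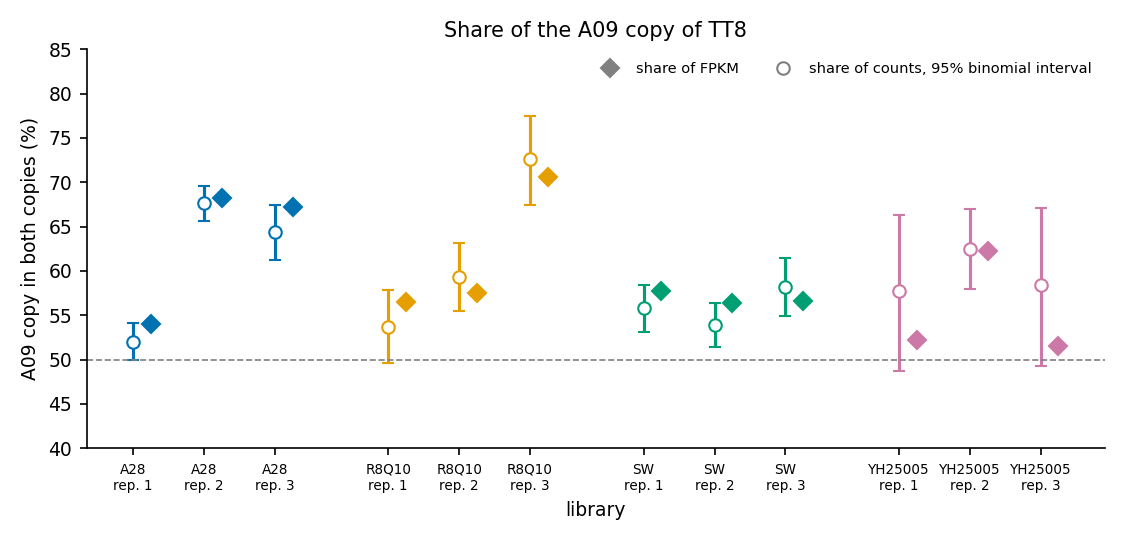
Share of the A09 copy in both TT8 copies in each library, from FPKM (diamonds) and from counts (open circles with exact 95% binomial intervals); the dashed line marks 50%. The SW libraries lie close together at 56.4% to 57.7% of FPKM, while single libraries of A28 and R8Q10 stand apart from their replicates.

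Over all listed genes with a subgenome in their ID, A subgenome genes held 46.6% ± 0.453 of the R8Q10 counts, 48.9% ± 0.462 of the A28 counts, 49.8% ± 0.132 of the SW counts and 50.2% ± 0.238 of the YH25005 counts. In counts, the A09 copy of TT8 held 61.9% ± 9.71, 61.3% ± 8.22, 55.96% ± 2.13 and 59.5% ± 2.61 in the same order. Genes of chromosome A09 held 57.2% ± 1.05 of the counts of A09 and C09 in A28, 56.3% ± 0.167 in SW, 58.3% ± 0.566 in YH25005 and 49.2% ± 0.6 in R8Q10 (SD, n = 3). In A28, SW and YH25005 the TT8 share lay within 1 SD of its own replicates from the share of these chromosomes, a wide margin in A28 with its SD of 8.22. The subgenome and chromosome shares sum the counts of all listed genes, not of homoeologous pairs, so abundant genes weigh most. They are therefore not a like-for-like background for the balance of 1 pair of copies. In R8Q10 the lowest of the 3 TT8 shares was 53.7%, above the share of the chromosomes, and the line had the widest spread of TT8 shares. The gene length implied by the ratio of count to FPKM varied from 1863 to 2622 bases for the A09 copy and from 1980 to 2206 for the C09 copy between libraries. The highest values of the A09 copy came from YH25005 replicates 1 and 3, where the FPKM share is accordingly lower than the count share. The sources used here do not say how reads matching both copies were counted, so the balance is that of the authors' assignment.

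Within lines the copies rose and fell in the same libraries. In 11 of 12 libraries both copies lay on the same side of their line's mean log2 CPM, the exception being A28 replicate 1 (-0.08 for the A09 copy, 0.48 for the C09 copy). YH25005 replicate 2 lay furthest above its line, by 0.99 in the A09 copy and 0.81 in the C09 copy. R8Q10 replicate 3 lay furthest below in the C09 copy, at -0.91, with -0.22 in the A09 copy. In each of the 4 lines replicate 2 lay above and replicate 3 below the line mean in both copies, that is 8 of 8 values above and 8 of 8 below. How many of all genes share this pattern, or the 11 of 12 above, was not counted. Across genes, the deviations of YH25005 replicate 2 had r of -0.205, -0.298 and -0.194 with replicate 2 of A28, R8Q10 and SW. The labels do not say what a replicate number marks. Deviations within a line sum to 0, so the 12 values are not independent. How reads matching both copies were counted is not known, so the copies may not be separate measurements.

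**Figure D4:**
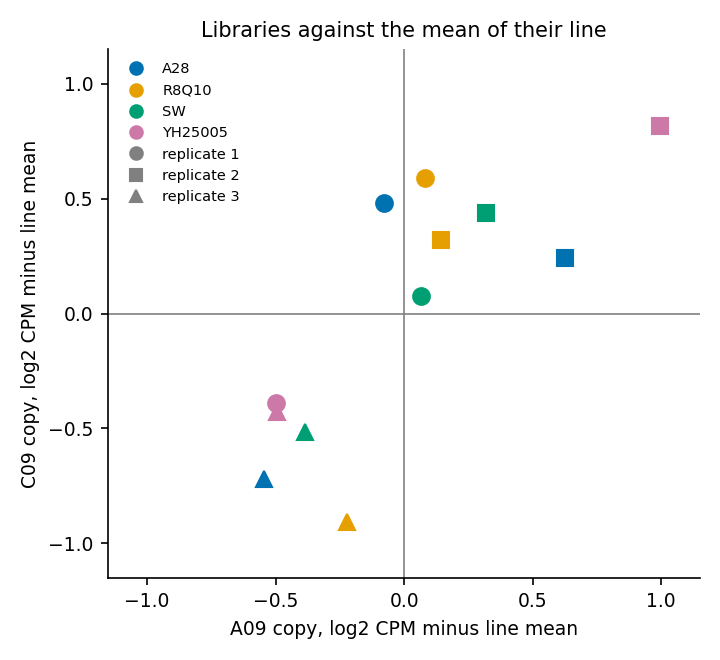
Log2 CPM of each library minus the mean of its line, for the A09 copy (horizontal) and the C09 copy (vertical); colours mark lines and shapes replicates. All points but A28 replicate 1 lie to the lower left or upper right, and YH25005 replicate 2 is the point furthest to the upper right, at 0.99 and 0.81.

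The spread of TT8 within a line was wide in YH25005. The SD of log2(CPM + 0.5) there was 0.78 for the A09 copy and 0.61 for the C09 copy, against a median of 0.24 over 43604 genes with a mean of at least 1 CPM, and 96.8% and 93.1% of those genes had a smaller SD. In R8Q10 the copies parted, with 0.18 for the A09 copy and 0.71 for the C09 copy against a median of 0.28. In A28 the values were 0.58 and 0.62 against 0.42, and in SW 0.35 and 0.47 against 0.29.

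The genes beside TT8 moved in either direction, depending on the copy and the pair of lines. The 10 listed genes on either side of each copy, in ID order, included 0 of 20 on A09 and 0 of 20 on C09 that were higher in A28 and SW than in R8Q10 and YH25005 in all 4 contrasts. With 1.96% of all genes meeting that condition, a count of 0 of 20 says little by itself. Around the A09 copy, SW against YH25005 had 0 genes higher and 3 lower of 20, with a median log2 fold change of -0.44, in a comparison where 13.6% of all genes were higher and 13.1% lower. Around the C09 copy, 1 was higher and 4 were lower, with a median of -0.11, while the median of all genes was 0.00. In A28 against R8Q10, 3 of 20 were higher and 3 lower around the A09 copy, and 1 higher and 0 lower around the C09 copy, at medians of -0.05 and 0.41 beside 0.06 over all genes. For that pair 12% of all genes tested were higher in A28 and 9.63% lower. In A28 against YH25005, 0 of 20 were higher and 3 lower around the A09 copy, at a median of 0.03, while 3 were higher and 0 lower around the C09 copy, at a median of 0.20. All genes gave 14.5% higher and 12.7% lower there, with a median of 0.06.

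Next to the A09 copy, BnaA09g22800D averaged 16.2 ± 3.87 CPM in A28, 14.1 ± 0.853 in SW, 19.95 ± 4 in R8Q10 and 12.9 ± 1.06 in YH25005, and BnaA09g22830D averaged 27.5 ± 11.7, 40.5 ± 9.81, 39.1 ± 7.22 and 40.9 ± 8 CPM in the same order. Neither passed the test in SW against YH25005. Of the other named neighbours, BnaA09g22770D was lower in SW than in YH25005 by a log2 fold change of -1.62 (adjusted p = 0.0018, edgeR), opposite in sign to TT8. BnaA09g22780D, BnaA09g22840D and BnaA09g22850D gave -0.88, -0.46 and -0.45 without passing. In A28 against R8Q10, BnaA09g22850D was higher in A28 by 1.00 (adjusted p = 0.046, edgeR), the direction of TT8. In A28 against YH25005, BnaA09g22780D was lower in A28, at -1.58 (adjusted p = 0.0139, edgeR).

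Next to the C09 copy, BnaC09g24810D averaged 20.2 ± 8.13 CPM in A28, 16.4 ± 2.29 in SW, 19.3 ± 2.3 in R8Q10 and 18.4 ± 2.44 in YH25005. BnaC09g24880D averaged 33.2 ± 8.36, 25.8 ± 7.84, 25.9 ± 3.2 and 45.9 ± 5.61 CPM in the same order and was lower in SW than in YH25005 by -0.83 (adjusted p = 0.0351, edgeR). BnaC09g24900D was also lower there, by -1.25 (adjusted p = 0.0326, edgeR), while BnaC09g24790D, BnaC09g24800D and BnaC09g24980D gave 0.35, -1.02 and -0.17 without passing. In A28 against R8Q10, BnaC09g24980D was higher in A28 by 1.17 (adjusted p = 0.0396, edgeR), again the direction of TT8.

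**Figure D5:**
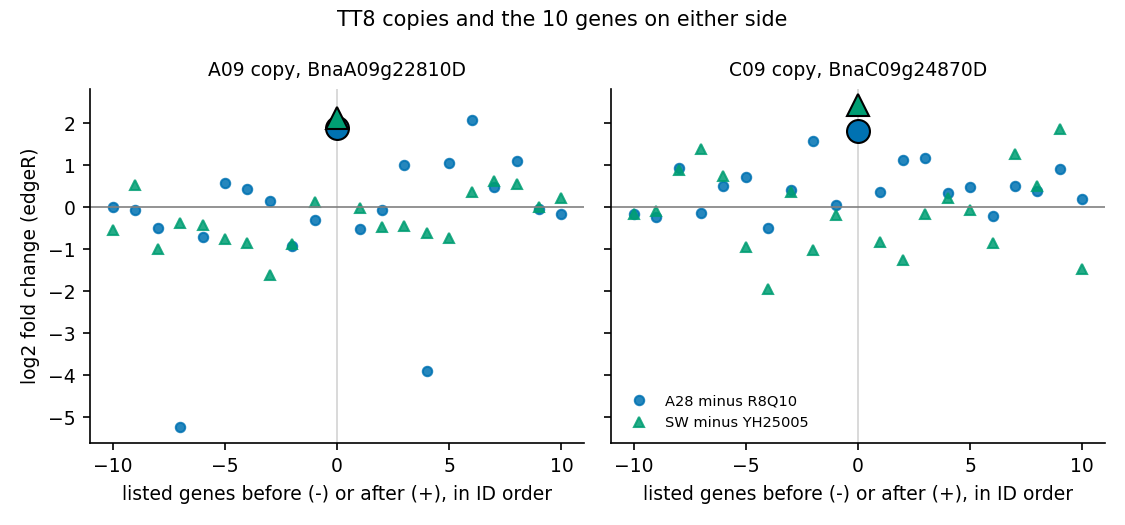
Log2 fold changes (edgeR) of each TT8 copy, drawn large at 0, and of the 10 genes listed before and after it in ID order, for A28 minus R8Q10 (circles) and SW minus YH25005 (triangles), comparisons that share no library. The TT8 copies stand at 1.83 to 2.43, and the neighbours lie on both sides of 0.

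The other copy was among the nearest genes in pattern. Over the 12 libraries the log2(CPM + 0.5) values of both copies had a Pearson r of 0.957, given as a description since the libraries fall into lines. The part that reads matching both copies may have in this r was not tested. Among 43603 genes ranked by this measure, the A09 copy was at rank 3 in likeness to the C09 copy, and the C09 copy was at rank 14 for the A09 copy. The median r over all genes was -0.01 with the A09 copy and -0.02 with the C09 copy. An r of at least 0.9 was reached by 173 genes with the A09 copy and by 122 with the C09 copy.

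The gene most like both copies was Brassica_napus_newGene_8188, a gene added to the annotation by the authors, with an r of 0.985 to the A09 copy and 0.962 to the C09 copy. It averaged 2.84 ± 1.07 CPM in A28, 2.37 ± 0.448 in SW, 0.605 ± 0.195 in R8Q10 and 0.264 ± 0.301 in YH25005, so it is a weak transcript, with 0 to 138 counts per library. Next for the A09 copy came BnaC09g41380D (r = 0.975), an abundant transcript at 619 ± 116 CPM in A28, 384 ± 50 in SW, 201 ± 51.1 in R8Q10 and 115 ± 74.9 in YH25005. BnaA03g47200D (r = 0.968) followed with a far smaller range, from 15.9 ± 2.03 CPM in A28 to 8.29 ± 0.99 in YH25005. For the C09 copy the second gene was BnaA09g34250D (r = 0.957), at 115 ± 17.1 CPM in A28, 103 ± 8.76 in SW, 80.7 ± 16.6 in R8Q10 and 67.5 ± 3.76 in YH25005. The files and the reference table give no name for these IDs.

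The other genes of the pathway could not be read out. Of 18 symbols of flavonoid and proanthocyanidin genes, TT8 included, 8 are named in the reference table and 0 of these rows carry an ID that the files use. The same held for 2 bHLH relatives of TT8 and for lists of embryo (7 symbols), seed coat (3) and endosperm (4) genes, so TT2, TTG1 and BANYULS, the partners and target named above, are not analysed here.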

How the data were processed

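The members and gene lists were chosen with earlier results of these data known. Per the labels' protocols, libraries came from poly-A RNA and were read as pairs. The protocol says nothing of strand, so antisense or overlapping genes may share reads. Tools named in the submitters' processing notes are bcl2fastq, HISAT2 and DESeq2, each without a version. The genome build, annotation and counting program were not given in the sources used here. Each deposited file, per the file headers, holds counts and FPKM by gene. A28 and R8Q10 share a list of 47207 genes, SW and YH25005 one of 46839, and a missing ID was filtered and is not a 0. The limit that a count of 0 allows is 3 counts, and both copies lay above it in all libraries.

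Counts of the 43708 genes in all files were tested in R 4.3.3 with edgeR 4.0.16 (TMM, quasi-likelihood fit, filterByExpr, 1 coefficient per line, library size as the total over listed genes). The p-values were adjusted by Benjamini-Hochberg over all genes at a threshold of 0.05. Fold changes are unshrunk log2 values with 95% intervals from the fit. The authors' FPKM served to compare the copies with each other and entered no test. The script was tested on simulated data. Alternatives were RLE factors, library totals alone, no filter, DESeq2 1.42.0, only the compared lines, all genes of a shared list, a replicate block and omission of each library. Genes named are the copies, the 3 listed genes on either side and the 3 with the highest Pearson r. The reference table matched 2185 IDs. In their deviations from line means, same-numbered libraries of A28 and R8Q10 had r of 0.118, 0.581 and 0.432 across genes, so a block was also fitted for that pair. A28 replicate 1 had a higher r with R8Q10 replicate 3 (0.205). The deviations of a line sum to 0, which constrains these r values.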

Additional observations from a re-analysis of the deposited data

How the results depend on the processing

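Across the 4 lines both copies passed in all alternatives that gave a value, with adjusted p between 5.5e-08 and 0.00513 for the A09 copy and between 1.01e-06 and 0.0113 for the C09 copy (0.000243 to 0.00513 and 0.00217 to 0.0113 without 1 library). A28 against YH25005, SW against YH25005 and, for the A09 copy, A28 against R8Q10 also passed in all of them. Library totals alone shifted the median of all genes by up to 0.41 (R8Q10 against YH25005), and the A09 copy in R8Q10 against SW then gave -1.30 (adjusted p = 0.0685). A fit of A28 and R8Q10 alone gave 1.78 for the C09 copy (adjusted p = 0.0574, and 0.0551 with all genes of their list), and 1.82 with a replicate block (0.00305, an alternative chosen after seeing the data). Without 1 library, log2 fold changes ranged from 1.46 to 2.09 (C09 copy, A28 against R8Q10), -1.57 to -1.22 and -1.97 to -1.34 (A09 and C09 copy, R8Q10 against SW), 0.51 to 1.44 (A09 copy, R8Q10 against YH25005), 0.09 to 0.70 (A09 copy, A28 against SW) and -0.14 to 0.40 (C09 copy, same pair, -0.14 without A28 replicate 1 and -0.09 without SW replicate 3). Over all lines 8 of 18 same-numbered and 11 of 36 differently numbered pairs deviated together (r above 0.1). Replicates 2 and 3 of SW went with those of A28 (0.363 and 0.132) and of R8Q10 (0.317 and 0.153). YH25005 replicate 2 had r of -0.205, -0.298 and -0.194 with replicate 2 of A28, R8Q10 and SW. The numbers thus do not pair all 4 lines. The replicate block in the fit of all lines gave the A09 copy 0.90 in R8Q10 against YH25005 (adjusted p = 0.0377; 11096 calls in that pair against 10217) and changed no other call of the copies. Computed from counts, the A share in SW was 55.96% in place of 56.9%, beyond the SD of 0.699. In YH25005 it was 59.5% in place of 55.3%, a larger move but within the SD of 6.01. In A28 it was 61.3% in place of 63.2%, and in R8Q10 61.9% in place of 61.5%. The lowest mean share was thus that of SW in counts and that of YH25005 in FPKM. By construction, the FPKM and count shares differ through the gene lengths implied by the ratio of count to FPKM. In YH25005 replicates 1 and 3 these were 2622 and 2613 bases for the A09 copy, against 2098 and 1981 for the C09 copy. Why the implied lengths varied between libraries was not tested.

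Counts of called genes, used as background, fell by over 1.5 times with only the compared lines for A28 against R8Q10 (6209, from 9463), SW (3849, from 6727) and YH25005 (7884, from 11892). The last fell to 7455 and 7550 without YH25005 replicate 1 or 3. R8Q10 against YH25005 fell from 10217 to 6638, 6404, 6191 and 6288 without R8Q10 replicate 1 or 3 or YH25005 replicate 1 or 3. At 52 to 1468 counts per library, depth limits the A share in YH25005 replicates 1 and 3 more than the levels.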
